A study of Mus musculus with 6 samples.

Results

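The 8 genes described here carry out insulin signalling and GLUT4 glucose uptake in muscle: Slc2a4, Hk2, Tbc1d1, Tbc1d4, Insr, Irs1, Irs2 and Akt2. Their members are the H3K27ac peaks that the deposited peak lists annotate to 1 of these genes, whether the peak lies at a promoter or far from it. The annotation names the gene with the nearest start, which for a distal peak need not be the gene it acts on. There were 80 such peaks among 46988 in the control list and 59 among 40721 in the detrained list. Acetylation of histone 3 at lysine 27 (H3K27ac) was measured by chromatin immunoprecipitation sequencing in quadriceps muscle of wild type male C57BL/6 mice (C57BL/6J in the methods) that were 8 weeks old at the start. Control mice were sedentary (2 libraries, C2 and C3), and detrained mice had 4 weeks of voluntary wheel running and then 72 hours without wheels before harvest (2 libraries, Ex1 and Ex2). No mouse carried a transgene or deletion, each library came from a single quadriceps, and each group had 1 input library, whose labels spell the strain C57BL/7 and C57BL/8. The comparison asks whether a period of voluntary running left a different pattern of this mark in resting muscle.

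Insulin binds its receptor (Insr), which phosphorylates the adaptors Irs1 and Irs2, and these recruit phosphoinositide 3-kinase and so activate the kinase Akt2. Akt2 phosphorylates Tbc1d4 and Tbc1d1, GTPase-activating proteins that otherwise keep Rab proteins inactive and the glucose carrier GLUT4 (Slc2a4) inside the cell. Muscle contraction reaches the same GTPase-activating proteins through the AMP-activated kinase, and glucose that enters the fibre is trapped as glucose 6-phosphate by hexokinase 2 (Hk2). H3K27ac marks active promoters and enhancers.

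Values are tags per 10000000 sequenced tags, given either per peak or per kb of peak (density). The control and detrained lists were called and normalized separately, so no test between groups was made, and with 2 libraries against 2 an exact two-sided permutation test could not give a p below 0.333. A peak was called different by rule where the ratio of densities reached 1.5-fold in either direction and the libraries of the groups did not overlap. A shared peak is a one-to-one pair in which at least 50% of each peak is covered by the other. The 4 libraries held between 20805019 and 22400894 tags. Of 5 skeletal muscle marker genes 4 had peaks in both lists (Tnnt3 had none), which summed to 3119 to 3922 tags per control library and 4257 to 4579 per detrained library. Endothelial markers (3 of 3 with peaks) summed to 1570 to 1886 tags in control and 1674 to 2235 in detrained libraries, and fibroblast markers (3 of 3) to 1561 to 1581 and 1840 to 1915. Leukocyte markers (2 of 4 with peaks in the control list, 3 of 4 in the detrained list; Cd68 had none) summed to 127 to 162 and 214 to 259 tags. Satellite cell markers (2 of 2) summed to 174 to 180 and 229 to 248, neuron markers (2 of 2) to 378 to 399 and 337 to 382, and liver markers (1 of 2, Alb without a peak) to 360 to 361 and 358 to 397. The adipocyte markers Adipoq, Plin1 and Cidec had no peak in either list, and Lep had a weak peak in the control list alone. The part of these other cell types in the values below was not tested, and in whole muscle fewer cells of a type and less acetylation per cell cannot be told apart.

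The starts of all 8 genes lay inside peaks of both lists. RefSeq promoter sequence on GRCm38.p6, the assembly called mm10, was at hand for 6 of the 8 genes (10 starts; Slc2a4 and Insr were not among them). The 250 bases before the start are shown for Hk2, which had the longest domain, for Tbc1d4 and Irs2, whose start peaks had the largest differences in density, and for Irs1, whose start peak was lower in both measures. Capitals mark matches on either strand to the GC box GGGCGG, the CCAAT box CCAAT and the E-box CANNTG.
Hk2, chr6:82774455-82774704, minus strand: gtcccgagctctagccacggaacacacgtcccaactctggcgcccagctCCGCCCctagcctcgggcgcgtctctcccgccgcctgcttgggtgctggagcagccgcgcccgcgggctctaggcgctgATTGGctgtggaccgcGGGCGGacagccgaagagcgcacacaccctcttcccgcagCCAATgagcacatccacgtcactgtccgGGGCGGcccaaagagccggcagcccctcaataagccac
Tbc1d4, chr14:101609192-101609441, minus strand: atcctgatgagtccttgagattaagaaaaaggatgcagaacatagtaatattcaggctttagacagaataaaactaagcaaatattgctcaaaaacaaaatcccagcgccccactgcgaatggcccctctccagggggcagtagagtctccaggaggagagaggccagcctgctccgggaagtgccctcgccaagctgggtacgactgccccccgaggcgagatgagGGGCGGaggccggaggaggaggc
Irs1, chr1:82291440-82291689, minus strand: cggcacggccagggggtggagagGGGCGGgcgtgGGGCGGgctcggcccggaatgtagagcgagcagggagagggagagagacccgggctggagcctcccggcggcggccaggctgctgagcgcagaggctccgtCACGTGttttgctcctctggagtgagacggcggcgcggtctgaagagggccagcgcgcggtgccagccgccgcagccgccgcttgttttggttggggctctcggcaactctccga
Irs2, chr8:11008930-11009179, minus strand: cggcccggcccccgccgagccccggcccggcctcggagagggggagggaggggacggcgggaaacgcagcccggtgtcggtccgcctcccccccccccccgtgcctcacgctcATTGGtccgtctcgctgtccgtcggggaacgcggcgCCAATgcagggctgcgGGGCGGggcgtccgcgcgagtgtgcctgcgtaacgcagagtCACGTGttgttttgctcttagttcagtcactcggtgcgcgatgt
The Hk2 window held 3 GC boxes and 2 CCAAT boxes, and the Irs2 window held 1 GC box and 2 CCAAT boxes. The Irs1 window held 2 GC boxes, while that of Tbc1d4 held 1 GC box and no other motif searched. Irs1 and Irs2, the adaptors, each had an E-box match reading CACGTG, a word present in 6.02% of all 32851 promoter windows and looked up after it was seen here. Among all windows 66.2% held an E-box, 32.7% a GC box and 33.8% a CCAAT box. The MEF2 site (2.92% of windows), the TATA box TATAAA (12.4%), the AP-1 site TGANTCA (6.75%) and the extended ERR site (1.14%) were also searched on both strands and had no match in any of the 10 windows of these genes. The windows of Irs1 and Irs2 were GC rich, at 72.4% and 72.8%, and that of Hk2 reached 69.6%. Tbc1d4 differed from them in having 54.8% GC, close to the middle of all windows (percentile 57.8). The 250 bases shown lay wholly inside the start peak in both lists for each of these genes.

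Across the 45 shared peaks of the 8 genes, density was higher in detrained muscle at 23 and lower at 22. The median log2 ratio of detrained over control was 0.03, beside −0.03 over all 26432 shared peaks, and the ratios ran from −0.60 to 0.53. By the rule 0 of the 45 peaks were called higher (1.1% of all shared peaks were) and 1 was called lower (2.06% were), the start of Tbc1d4. Both detrained libraries lay above both control libraries at 13 peaks, where 21.3% of all shared peaks did so, and below them at 7, where 27.2% of all did. Per peak, without dividing by length, the median log2 ratio was 0.07. In tags per peak both detrained libraries stood above both controls at 20 of the 45 (24.7% of all shared peaks) and below both at 6 (28.8% of all). By the 1.5-fold rule in tags per peak, 3 were called higher (5.51% of all were) and 2 lower (5.08% were). Density and tags per peak had the same sign at 29 of the 45 peaks (64.4%, beside 51.8% of all shared peaks). Of the other 16, the detrained list gave a longer peak at 11 and a shorter one at 5. In all, 30 of the 45 peaks were called longer in the detrained list (66.7%, beside 51.6% of all shared peaks). Library C3 stood above C2 in density at 34 of the 45 peaks, with a median log2 difference of 0.21, beside 0.07 over all shared peaks. This median gap between the controls was larger than that between the groups.

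**Figure D1:**
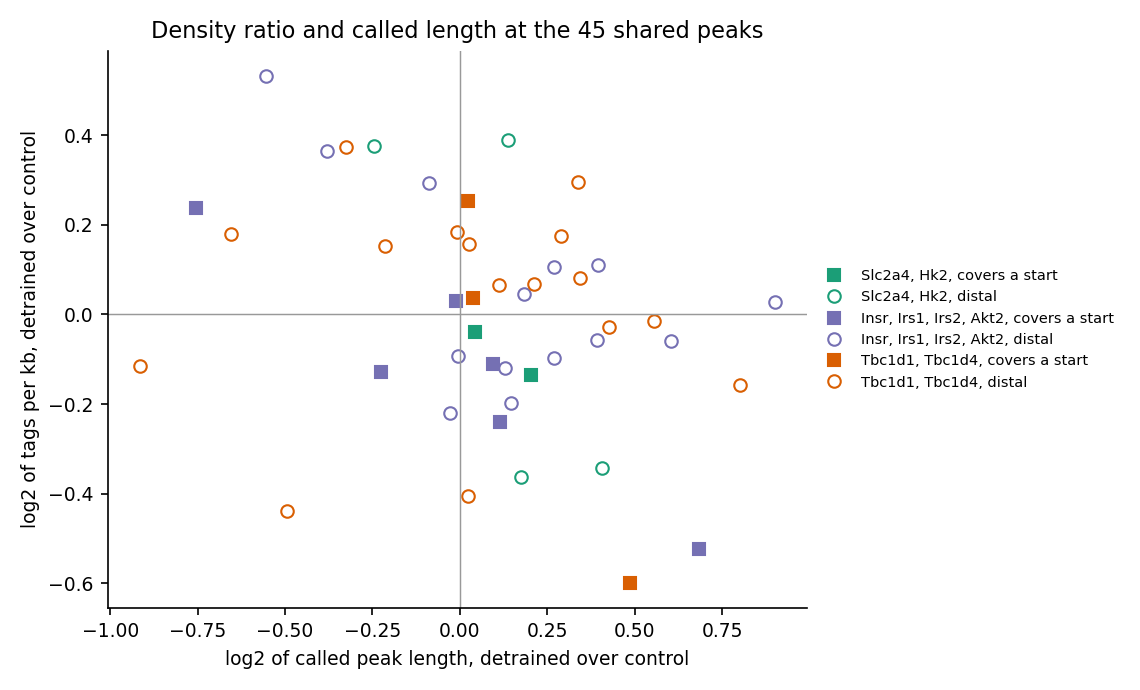
Log2 ratio of density (tags per kb, vertical axis) against log2 ratio of called peak length (horizontal axis), detrained over control, at the 45 shared peaks; filled squares cover an annotated start and open circles do not, and colours give the gene class. The lowest points on the right, the starts of Tbc1d4 (−0.60) and Irs2 (−0.52), are peaks that were called longer in the detrained list.

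Slc2a4 encodes GLUT4, the glucose carrier that insulin and contraction bring to the surface of muscle fibres. Its main peak covered both annotated starts (chr11:69948197 and chr11:69948190) and had 81.0 and 107 tags per kb in the controls and 85.5 and 83.9 in the detrained libraries. The detrained values lay between the controls, so the log2 density ratio of −0.14 was smaller than the pooled SD of 0.20. Tags per peak gave 0.07, again within the spread. This peak held 96.6% of the Slc2a4 tags in the control list. A weak peak 7.6 kb before the start had 13.96 and 18.1 tags per kb in the controls and 21.03 and 20.6 in detrained muscle. There the detrained libraries stood above both controls in density (log2 ratio 0.39, pooled SD 0.19) and in tags per peak (0.53), short of the call in density. Among 12492 genes with a shared peak, the 3 whose main peak was closest to that of Slc2a4 over the 4 libraries were Kmt5a, Prkaa2 (a catalytic subunit of the AMP-activated kinase) and Ankrd23, at root mean square log2 distances of 0.020, 0.028 and 0.031. They were picked on these same 4 values, so their likeness to Slc2a4 in any library is fixed by the choice.

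Hk2, which phosphorylates glucose as it enters the fibre, lay under an acetylated domain of 28982 bp in the control list and 29839 bp in the detrained list. In both lists this domain ranked 15th in length among all peaks. Its densities were 82.1 and 109 tags per kb in the controls and 92.9 and 91.1 in the detrained libraries. The groups overlapped, and neither the density (log2 ratio −0.04, pooled SD 0.20) nor the tags per peak (0.0035) moved beyond the spread of the controls. Upstream of Hk2 a peak at −32.8 kb had 56.2 and 74.4 tags per kb in controls and 51.6 and 50.5 in detrained libraries (log2 ratio −0.34). A weaker peak at −23.2 kb had 30.7 and 19.8 against 19.0 and 19.3 (−0.36). Without C3 the ratio was −0.68 and met the rule for a call, as it did with no other library left out. In both the detrained libraries were below both controls in density, but in tags per peak the groups overlapped. Within the gene, a peak at +33.2 kb stood above both controls, with 31.6 and 37.6 in the controls and 48.4 and 41.3 in detrained muscle (0.38), and it too overlapped in tags per peak.

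**Figure D2:**
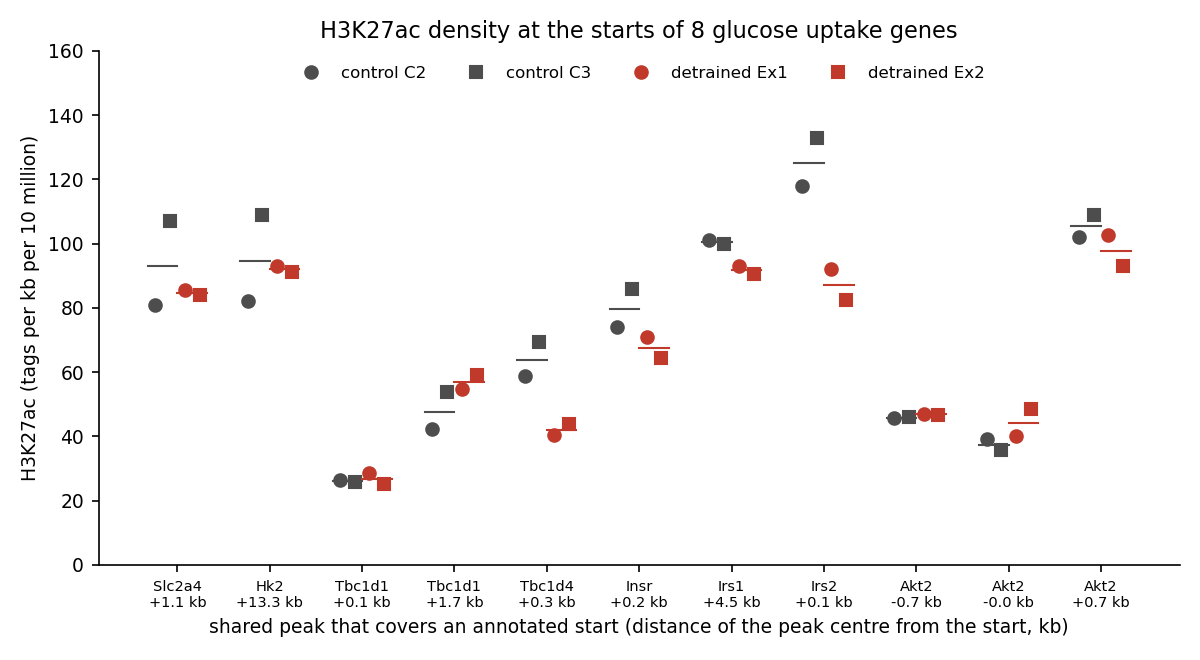
H3K27ac density (tags per kb, normalized as above) in each library at the 11 shared peaks that cover an annotated start, with the distance of the peak centre from the start under each gene; horizontal lines are the geometric means of the 2 libraries of a group. The detrained libraries of Tbc1d4 (40.5 and 43.8) and Irs2 (92.1 and 82.3) lie below their controls, while those of Slc2a4 and Hk2 lie between their controls.

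Tbc1d4, also called AS160, is the GTPase-activating protein through which Akt2 releases GLUT4 vesicles. The peak at its start (control interval inside the detrained one) had 58.7 and 69.3 tags per kb in the controls and 40.5 and 43.8 in the detrained libraries. Both detrained values were below both controls, and density was 1.51-fold lower (log2 ratio −0.60, pooled SD 0.13), the only call among the 45. The peak was called at 1876 bp in the control list and at 2630 bp in the detrained list. In tags per peak the libraries had 110 and 130 in controls and 106 and 115 in detrained muscle, so the groups overlapped and the log2 ratio was −0.11. The call was also lost with input tags subtracted (−0.40), when scaled to tags in listed peaks (−0.55), when the median of all shared peaks was set to 0 (−0.57), without C3 (−0.48) and without Ex1 (−0.54), and the pair itself was lost where 80% of each peak had to be covered.

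Beyond its start, Tbc1d4 had the largest difference in listed peaks of the 8 genes, with 14 peaks in the control list and 6 in the detrained list and 9 of the 14 having no overlapping peak in the detrained list, as 27.9% of all control peaks had none. Summed over its listed peaks, Tbc1d4 had 499 and 576 tags in the controls over 17.7 kb and 303 and 329 in the detrained libraries over 9.45 kb. The covered length was smaller along with the sum, and the mean density over listed peaks was 28.2 and 32.6 tags per kb in controls against 32.05 and 34.8 in detrained libraries. The strongest of the 9 was at +125.8 kb in intron 8 of 18 (chr14:101482192-101484558), with 67.1 and 72.7 tags in the control libraries and 5.80-fold over input. Of all control peaks at least as strong, 1.44% had no overlapping detrained peak. That share includes far stronger peaks, and this peak was picked as the strongest of the 9. The share therefore does not measure how unusual the peak is. The central 200 bases of that peak follow, on the plus strand of mm10, as it was the strongest region of these genes listed in controls alone. Capitals mark motif matches as above and the TATA box.
Tbc1d4 +125.8 kb, chr14:101483275-101483474: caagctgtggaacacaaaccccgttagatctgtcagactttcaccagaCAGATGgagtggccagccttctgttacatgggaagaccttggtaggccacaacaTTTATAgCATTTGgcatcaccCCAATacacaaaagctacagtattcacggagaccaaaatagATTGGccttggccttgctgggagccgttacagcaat
This window held 2 E-boxes, 2 CCAAT boxes and 1 TATA box, which occurred in 63.6%, 21.2% and 10.1% of the centres of all control peaks, in that order. Absence from a list says that a region did not pass the peak caller there, not that it had no tags. At shared introns of Tbc1d4 the direction was mixed: at +23 kb tags per peak were 22.1 and 22.2 in controls and 35.5 and 33.3 in detrained libraries (log2 ratio 0.63), and density was also above both controls (0.30). At +40.2 kb tags per peak were 59.5 and 58.5 in controls and 44.9 and 40.1 in detrained libraries (−0.48). There the called length was 1818 bp in controls and 1154 bp in detrained muscle, and density went the other way, at 32.7 and 32.2 against 38.9 and 34.8 tags per kb (0.18). At +36.0 kb tags per peak were above both controls (27.8 and 35.1 against 49.1 and 37.9, 0.47), while density overlapped. At +90.7 kb density was lower (−0.41, pooled SD 0.44), and the groups overlapped in both measures.

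**Figure D3:**
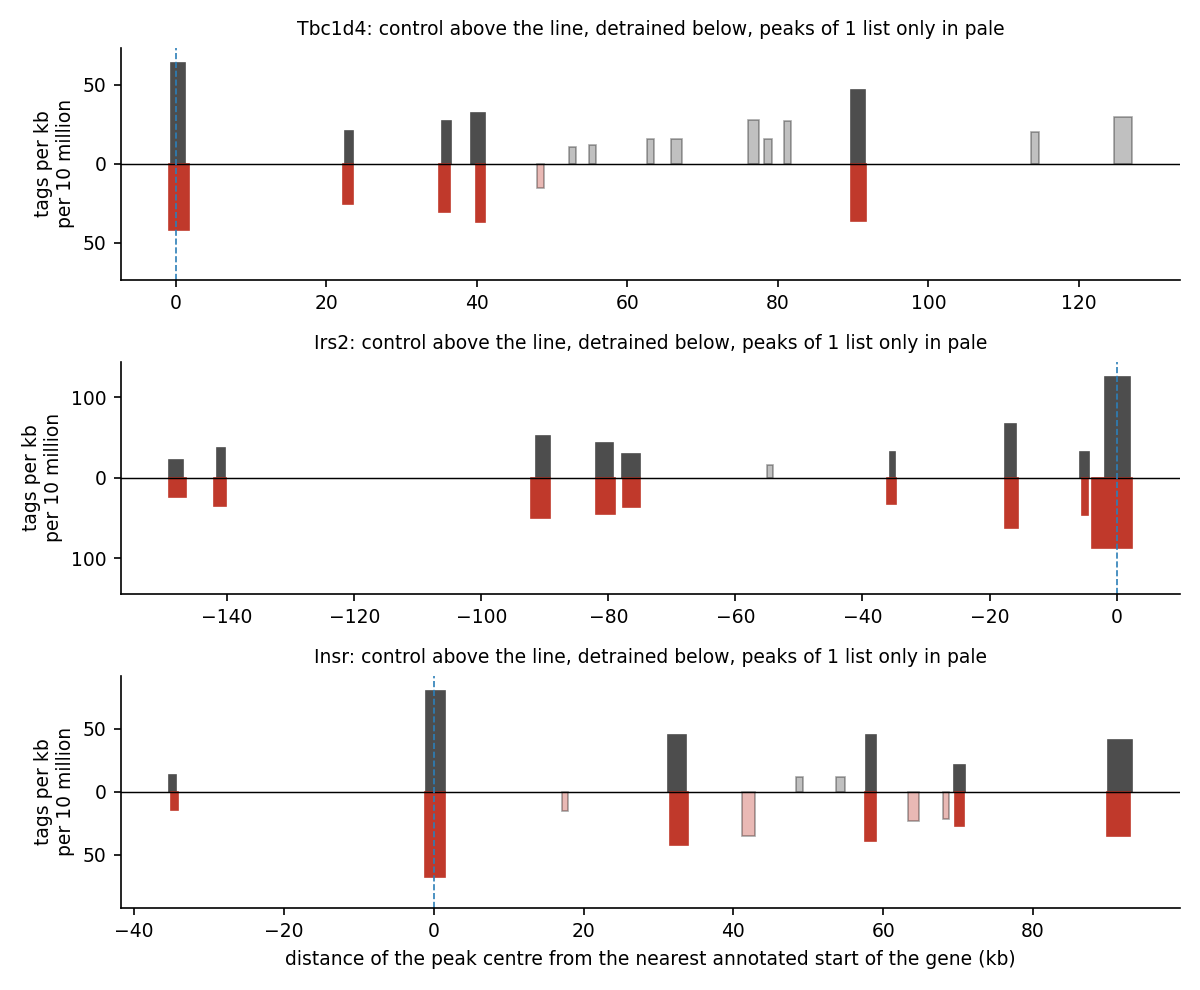
Peaks of Tbc1d4, Irs2 and Insr by the distance of their centre from the annotated start (kb, negative before the start); bar height is pooled density (tags per kb, normalized as above), with control peaks above the line and detrained peaks below, bar width the called length, and pale bars the peaks of 1 list only. Tbc1d4 has 9 pale control bars, 7 of them between 50 and 90 kb, and Insr has 4 pale detrained bars.

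Tbc1d1, the related GTPase-activating protein that responds to contraction, had the largest set of peaks, 24 in the control and 18 in the detrained list. At its first start (chr5:64160260) density was 42.3 and 53.8 tags per kb in controls and 54.7 and 59.1 in detrained libraries. The detrained libraries lay above both controls in density (log2 ratio 0.25, pooled SD 0.18) and in tags per peak (0.28). The start of the shorter transcript (chr5:64230357) was weaker and overlapped between groups, at 26.6 and 25.9 against 28.7 and 25.2. Some Tbc1d1 peaks were split in 1 list and joined in the other, so overlapping peaks of both lists were also merged into regions and their tags summed, a step chosen after these values were seen. In 13 of the 15 merged Tbc1d1 regions listed in both groups the detrained tags were higher, as in 48.6% of all merged regions, and in 10 of them both detrained libraries exceeded both controls, as in 28.1% of all. The Tbc1d1 peak with the largest difference in density, at +110.5 kb with 44.2 and 42.7 tags per kb against 32.2 and 31.9 (log2 ratio −0.44), was such a split. Its merged region (chr5:64333228-64346823) had 472 and 456 tags over 10.7 kb in controls and 555 and 509 over 12.8 kb in detrained libraries. The region at chr5:64185335-64201392 had 506 and 757 tags in the controls and 762 and 731 in the detrained libraries, with C2 far below the other 3. Of the 2 regions with fewer tags, the groups separated at 1, an intronic region 7.5 kb after the second start (chr5:64236553-64239094), with 55.7 and 64.4 tags over 2.54 kb in controls and 26.8 and 31.8 over 1.35 kb in detrained libraries, while density overlapped.

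**Figure D4:**
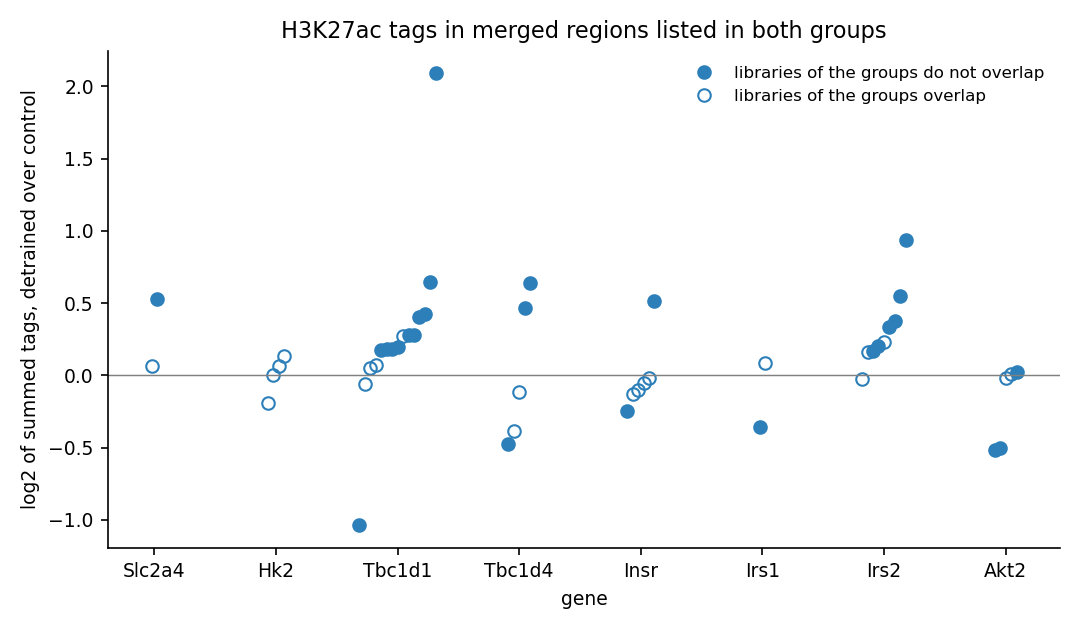
Log2 ratio of summed tags, detrained over control, in the 48 merged regions listed in both groups, by gene; filled points are regions where the 2 libraries of a group lie wholly on 1 side of the other group. Tbc1d1 (13 of 15) and Irs2 (8 of 9) lie mostly above 0, Insr (1 of 6) mostly below.

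Over all 8 genes, 32 of the 48 merged regions had more tags in detrained muscle, beside 48.6% of all merged regions, and 16 had fewer. Both detrained libraries exceeded both controls in 21 regions, where 28.1% of all 31776 merged regions did so, and lay below both in 6, where 29.5% did. At least 1.5-fold with no overlap, 4 regions were higher (10.3% of all were) and 1 was lower (8.02% were). The median log2 ratio was 0.11, beside −0.01 over all merged regions. Without 1 library at a time, between 27 (without C2) and 37 (without C3) of the 48 were higher. These sums move with the length that was called in each list. The 4 higher regions belonged to Tbc1d1 (2), Irs2 and Tbc1d4, and all 4 were called longer in detrained muscle. The steepest of them (chr5:64176371-64177565, log2 ratio 2.09) had 6.44 and 5.31 tags over 0.5 kb in controls and 20.7 and 30.0 over 1.19 kb in detrained libraries.

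Insr encodes the insulin receptor. Its start peak had 74.2 and 85.8 tags per kb in the controls and 70.9 and 64.4 in the detrained libraries, so the detrained values were lower in density (log2 ratio −0.24, pooled SD 0.13), while tags per peak (−0.13) overlapped. Of its 6 shared peaks 5 had fewer tags in detrained muscle, with log2 ratios from −0.25 to −0.02. Among these 5 the groups separated in tags at +91.6 kb alone, with 114 and 146 in controls and 112 and 105 in detrained libraries. The other, a weak peak at −34.8 kb, separated upward, with 10.7 and 9.18 tags against 12.1 and 16.4 (0.51). Of all shared peaks, 28.8% separated downward in tags and 24.7% upward. The largest difference in density at Insr went upward, at +70.1 kb, with 21.8 and 20.2 tags per kb in controls and 27.4 and 26.7 in detrained libraries (log2 ratio 0.36, pooled SD 0.06), where the peak was called at 1518 bp and 1166 bp and tags per peak overlapped (−0.02). Insr was the only 1 of the 8 genes with more listed peaks after running, 10 against 8, of which 4 had no overlapping control peak, beside 18.0% of all detrained peaks. The strongest of these 4, at +42.0 kb in intron 2 of 21 (chr8:3236688-3238470), had 66.7 and 59.5 tags in the detrained libraries and was 4.68-fold over input. Of all detrained peaks at least as strong, 1.35% had no overlapping control peak. Again this includes far stronger peaks, and the peak was picked for its strength, so the share does not measure how unusual it is. Its central 200 bases, the strongest region of these genes listed in detrained muscle alone, held 2 E-boxes (found in 63.0% of all detrained peak centres) and no other motif searched.
Insr +42.0 kb, chr8:3237479-3237678: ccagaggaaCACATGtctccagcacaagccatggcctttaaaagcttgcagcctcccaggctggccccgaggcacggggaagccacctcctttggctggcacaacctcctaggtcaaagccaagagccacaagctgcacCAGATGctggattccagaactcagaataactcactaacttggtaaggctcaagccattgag

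Irs1, the main receptor adaptor of muscle, lay under an unbroken domain that reached from its start into the gene, 13393 bp long in the control list and 11462 bp in the detrained list. Its densities were 101 and 99.9 tags per kb in the controls and 93.2 and 90.6 in the detrained libraries. This was the start peak at which lower density (log2 ratio −0.13, pooled SD 0.02) and fewer tags per peak (1353 and 1338 against 1068 and 1039, −0.35) went together with no overlap of the groups, though the change stayed under 1.5-fold. Scaled to tags in listed peaks the density ratio was −0.079, with a pooled SD of 0.068. Downstream of the start, 5 of 7 control peaks of Irs1 had no overlapping detrained peak, beside 27.9% of all control peaks, and the strongest of these held 31.0 tags. A region near the end of the gene (chr1:82238587-82245905) was 1 peak in the control list and 2 in the detrained list, and its summed tags overlapped, at 161 and 217 against 194 and 203.

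At Irs2, the other adaptor, the result depended on the measure. Its start had lower density but not fewer tags, and its far upstream peaks had more tags but density ratios in both directions. The start peak had 118 and 133 tags per kb in the controls and 92.1 and 82.3 in the detrained libraries (log2 ratio −0.52, pooled SD 0.12), with the detrained libraries below both controls. Under the 1.5-fold rule it was called lower without C2 (−0.61) and without Ex1 (−0.60). It was not called with all libraries, without C3 (−0.44) or without Ex2 (−0.44). It was called at 3901 bp in controls and 6267 bp in detrained muscle, and per peak it had 460 and 518 tags against 577 and 516 (0.16), where the groups overlapped. At −5.0 kb the reverse held: density was 29.5 and 34.9 in controls and 49.4 and 43.6 in detrained libraries (0.53), while tags per peak did not separate (−0.02). This density was called higher without C3 (0.65), without Ex2 (0.62) and with input tags subtracted (0.69), but not with all libraries, without C2 or without Ex1. Leaving out 1 library makes the no-overlap condition easier to meet. Further upstream, 7 peaks between −16.7 and −148.0 kb all had more tags per peak in detrained muscle. Those at −16.7 and −35.3 kb, like that at −5.0 kb, lay in an intron of a noncoding transcript. The rest were intergenic. In 6 of the 7 both detrained libraries exceeded both controls, as they did in tags per peak at 24.7% of all shared peaks, the largest ratio being at −35.3 kb, with 24.7 and 24.5 tags against 49.5 and 44.3 (0.93). Of these 7, only the peak at −76.4 kb separated in both measures, with 28.8 and 31.2 tags per kb in controls and 34.6 and 38.9 in detrained libraries. The added tags elsewhere came with a longer called peak, as 6 of the 7 were longer in the detrained list.

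Akt2, the kinase that links the receptor to GLUT4, had 3 start peaks over its 4 annotated starts. The broadest, 10793 bp in the control and 10716 bp in the detrained list, had 45.7 and 46.0 tags per kb in controls and 47.0 and 46.7 in detrained libraries. The detrained libraries were above both controls, but by a log2 ratio of 0.03. The most upstream start had 102 and 109 against 103 and 93.0 (−0.11), with overlap. The peak between them was called at 4212 bp in controls and 2498 bp in detrained muscle, with a higher density (39.2 and 35.7 against 40.1 and 48.5, log2 ratio 0.24) and fewer tags (165 and 151 against 100 and 121, −0.52).

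Summed over listed peaks, Hk2 had 2722 and 3563 tags in controls and 3165 and 3093 in detrained libraries, over 37.7 and 39.2 kb. Tbc1d1 had 2701 and 3186 against 3370 and 3220, over 77.7 and 78.8 kb. Hk2 was first in both controls, where its range overlapped that of Tbc1d1, and Tbc1d1 was first in both detrained libraries, where the ranges did not overlap. Irs1 followed with 1604 and 1652 against 1282 and 1260 (25.4 and 18.6 kb), and Akt2 with 1246 and 1285 against 1172 and 1129 (28.2 and 23.4 kb). Irs2 had 1023 and 1141 against 1266 and 1265 (19.2 and 23.6 kb) and so stood below Akt2 in controls, with no overlap, and above it in detrained muscle, again with no overlap. In detrained muscle the ranges of Irs2 and Irs1 overlapped. Insr, Slc2a4 and Tbc1d4 were lowest in sum, at 512 to 601, 490 to 646 and 499 to 576 tags in controls, ranges that overlapped. In detrained muscle Tbc1d4 separated from Insr and Slc2a4, at 303 and 329 against 591 to 648. Per kb of listed peak, Hk2 was first and Slc2a4 was next in each of the 4 libraries (72.3 to 94.6 and 69.3 to 91.5), and Tbc1d4 was last in each.

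Of the 80 control peaks of these genes, 29 (36.3%) had no overlapping detrained peak, where 27.9% of all control peaks had none. Of the 59 detrained peaks 9 (15.3%) had no overlapping control peak, where 18.0% of all had none. Such peaks were mostly weak: 25 of the 29 and 6 of the 9 held fewer than 30 tags, and none of them covered a start. The control input held 10812470 tags and the detrained input 21298438, and the part of this in the lists was not tested.

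**Figure D5:**
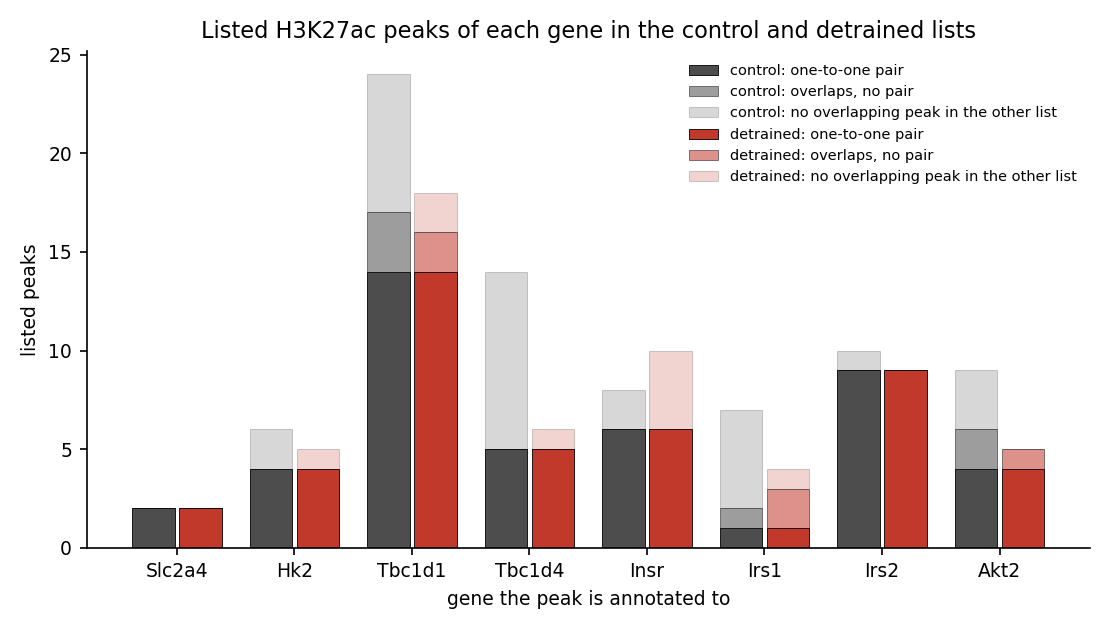
Number of listed peaks annotated to each gene in the control (grey) and detrained (red) lists, split into one-to-one pairs, peaks that overlap the other list without such a pair, and peaks with no overlap. Tbc1d4 goes from 14 to 6 and Irs1 from 7 to 4, while Insr goes from 8 to 10.

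Of 52 other genes of the pathway, 50 had a shared peak, 132 in all, of which 2 were called higher and 2 lower, beside 1.1% and 2.06% of all shared peaks, with a median log2 ratio of −0.03. The higher calls were annotated to Mef2a and Ptpn1, at −41.1 and +0.8 kb from their starts. Mef2a, a transcription factor that acts on Slc2a4, had 40.4 and 48.7 against 70.1 and 64.3 tags per kb (0.60). Ptpn1, a phosphatase of the insulin receptor, had 50.3 and 52.0 against 77.3 and 76.4 (0.59). Lower calls were annotated to Pik3r1 at −1.0 kb and to Ppp1r3a at +146.6 kb, far from its start. Pik3r1, the regulatory subunit of phosphoinositide 3-kinase, had 54.3 and 49.8 against 31.2 and 36.4 (−0.63). Ppp1r3a, a muscle subunit that targets phosphatase 1 to glycogen, had 44.2 and 58.3 against 27.3 and 30.7 (−0.81). The log2 ratios in tags per peak were −0.14 for Mef2a, −0.07 for Ptpn1, −0.02 for Pik3r1 and −0.73 for Ppp1r3a, so that the last alone kept its size. By class, calls were 0 of 11 peaks at receptor and adaptor genes, 1 of 27 at kinase genes, 1 of 31 at inhibitor genes, 0 of 27 at GLUT4 traffic genes, 0 of 5 at genes of other glucose carriers and Hk1, 1 of 13 in the glycogen branch and 1 of 18 at transcription factor genes.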

How the data were processed

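H3K27ac was measured in 4 libraries, with 1 input per group. Reads were aligned by the authors with Bowtie (mm10), and HOMER called broad peaks on the pooled libraries of each group against its input, with DESeq2 inside that step. The deposited lists give for each peak a pooled signal (tags per 10000000) and a regularized log2 value per library, which is shrunken in weak peaks; their p-values were not used. Deposited log2 fold over input served only as a filter.

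Tags per library were estimated by sharing the pooled tags in proportion to library total and 2 to the power of the log2 value; 0.5 tags were added before logs. Control columns are numbered 2 and 3 where the labels say 1 and 2, so they were assigned to the group only. Depth was 20805019 to 22400894 tags per library, with no counts per library, so no count test was run. Samples are single muscles, and the SD measures the spread between 2 libraries. It rests on the regularized log2 values, so in weak peaks it can understate that spread. Ratios set beside it, and groups that do not overlap, can then look firmer than they are. Scripts (Python 3.11.15, pandas 2.3.3) were tested on simulated data. Each gene was named with its promoter shared peak or else its densest one; pathway genes were named if called, and Slc2a4 neighbours by root mean square distance. Members and lists were chosen with earlier results of these data known. One pathway gene is not reported here and was left out of its list and counts. Alternatives are given below.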

Additional observations from a re-analysis of the deposited data

How the results depend on the processing

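No paired analysis was possible because control and detrained libraries came from different mice with no pairing between them, and no test was made. DESeq2, edgeR, TMM and size factors were not run, as no tag counts per library in 1 set of peaks were at hand. The median log2 ratio over the 45 shared peaks (0.027) was 0.073 as tags per peak, −0.0038 with 80% coverage, −0.016 with 5 tags added, 0.077 scaled to tags in listed peaks, 0.053 centred on all shared peaks, −0.027 when peaks under 4-fold over input were dropped and 0.11 in merged regions; without 1 library it ran from −0.046 to 0.10. For peaks not annotated as promoter (−0.014) it was 0.13 as tags per peak, −0.066 with 80% coverage, 0.037 with any overlap, 0.036 scaled to listed peaks, 0.056 for peaks that cover no start, and −0.084 to 0.12 without 1 library. For the 4 promoter peaks (0.034) it stayed within the spread, except −0.11 for the 11 peaks that cover a start. The number of peaks lower in detrained muscle (22) was 12 with 80% coverage and 14 to 26 without 1 library. The number called (1) was 5 as tags per peak (3 higher and 2 lower, beside 5.51% and 5.08% of all shared peaks) or in merged regions, 2 with any overlap, 0 with 80% coverage, scaled to listed peaks, centred or at 2-fold, and 1 to 3 without 1 library (among them Tbc1d4 +90.7 kb, −0.68 without C2 and −0.75 without Ex2); with input subtracted it was 1, at Irs2 −5.0 kb. Calls at other pathway genes numbered 4, and 11 as tags per peak (7 higher and 4 lower). Detrained peaks of 1 list rose from 9 to 14 where any peak without a pair was counted. Hk2 was first in 2 libraries by summed tags and in 4 per kb. Merged regions and starts were defined after seeing the data. Causes were not tested, except that 80% coverage leaves fewer pairs. Weak peaks are limited by few tags.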
